A study of Sus scrofa with 26 samples.

Results

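The subcutaneous adipose tissue (SCAT) of 5 Large White (LW) and 5 Creole pigs, all slaughtered under heat stress, was compared on one-colour microarrays, with 1 animal per array. These 10 arrays, of 26 in the series, were chosen by their titles, which name the breed and the temperature. LW is a lean, fast-growing commercial breed and Creole is a fatter local breed of the Caribbean. All pigs were castrated males that entered a climatic room at 11 weeks of age and had free access to the same diet. The heat is 30 °C by the titles but 32 °C, kept for 5 days, by the series' own design text, and the methods place slaughter after 4 or 5 days of exposure. The series also holds arrays of 4 LW and 3 Creole pigs slaughtered at thermoneutrality (TN, 24 °C) before the temperature rose, and of the LW × Creole cross (F1), with 5 pigs under heat and 4 at TN. All 26 arrays entered the normalization, the filter on dim probes and the estimate of the spread. Pigs were penned by breed, 3 to a pen, and came from blocks of littermates, so that breed, pen and litter cannot be told apart. Standard errors and adjusted p-values rest on the spread between animals within the 6 groups, pooled, not on that of the 10 pigs alone. Arrays are numbered 1 to 5 within a breed in the order of deposit, and the numbers pair nothing.

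White adipose tissue stores surplus energy as triglycerides. In pigs it is also the main site where fatty acids are made from glucose and acetate, through citrate exported from mitochondria, fatty acid synthase and the desaturases and elongases that follow it. It also holds vessels, fibroblasts, nerves and immune cells, and it secretes hormones. In warm surroundings pigs eat less and lower their heat production, and the subcutaneous fat lies between the body core and the skin through which heat is lost.

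The tissue label was borne out by its markers. All 9 adipocyte markers were well above background on all 10 arrays, with a mean log2 intensity of 18.38 in LW and 18.41 in Creole for FABP4, the fatty acid binding protein of adipocytes, and of 17.47 and 17.56 for the adipose hormone ADIPOQ. Between 42887 and 44870 of the spots of each array were well above background (71.1% to 74.4%). Log2 levels correlated between arrays at 0.985 to 0.991 within LW, 0.974 to 0.992 within Creole and 0.972 to 0.988 between the breeds, so that the most dissimilar Creole arrays differed from each other about as much as the breeds did. Creole arrays 3 and 5 stood apart in several gene lists, and counts without them are given for some of these lists. The 10 arrays lay on 5 slides, of which only 2 held both breeds.

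Of 44703 probes tested, 2530 differed between the breeds under heat at an adjusted p below 0.05 (5.66%). Of these, 1062 were higher in LW (2.38% of the tested probes) and 1468 were lower in LW (3.28%). Differences are given below as LW minus Creole on the log2 scale, with the standard error (SE) of the fit. Most differences were small, with a median size of 0.49 among the differing probes, and 242 probes differed by more than 1 (0.541%). The arrays of the breeds did not overlap for 2280 probes (5.1%), including 1372 of the 2530. With 1 probe for each of 10500 named genes, 653 genes differed (6.22%), of which 277 were higher in LW (2.64%) and 376 were lower (3.58%). These gene percentages are the background for each list of genes below. The arrays did not overlap for 589 of the 10500 genes (5.61%). The number of differing probes depended on single animals. It ranged from 845 without LW array 2 to 4683 without Creole array 5, and was 792 when the 10 arrays were normalized and fitted on their own.

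**Figure D1:**
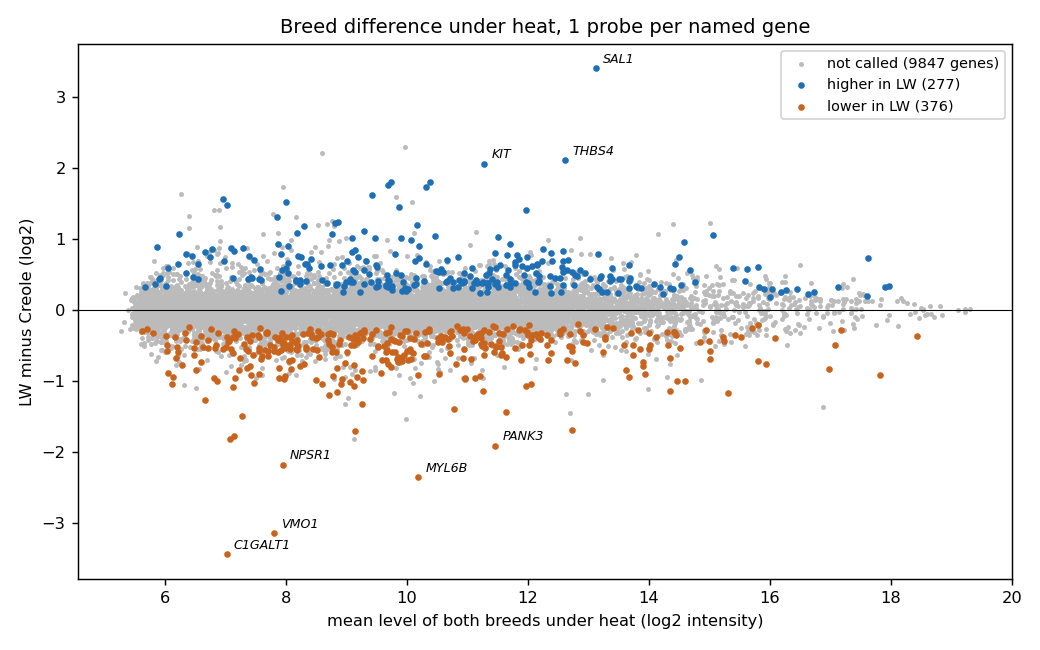
Difference between LW and Creole under heat (log2, y axis) against the mean level of both breeds (log2 intensity, x axis), 1 point for each of 10500 named genes. The 277 genes higher in LW are blue and the 376 lower are orange. SAL1 lies farthest above 0 and C1GALT1 farthest below.

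The array reads each transcript through 60-base probes, and the largest differences rest on the following ones, shown because these are the sequences that were brighter in 1 breed. The first group was brighter in Creole and the second in LW. The letters are those of the deposited files, none is capitalised because the whole probe is read, and the probes were not realigned to a genome.
C1GALT1 probe: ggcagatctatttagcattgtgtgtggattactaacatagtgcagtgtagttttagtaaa
VMO1 probe: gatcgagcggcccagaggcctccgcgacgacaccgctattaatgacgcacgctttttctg
MYL6B probe: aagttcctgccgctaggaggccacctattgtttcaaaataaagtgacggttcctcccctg
NPSR1 probe: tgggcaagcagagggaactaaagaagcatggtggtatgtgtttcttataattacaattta
NPSR1 other probe: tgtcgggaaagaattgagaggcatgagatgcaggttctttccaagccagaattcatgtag
KIT probe: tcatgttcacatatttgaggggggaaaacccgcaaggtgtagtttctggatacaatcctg
KIT other probe: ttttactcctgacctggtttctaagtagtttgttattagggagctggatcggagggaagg
SAL1 probe: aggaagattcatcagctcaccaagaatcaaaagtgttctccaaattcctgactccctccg
SAL1 other probe: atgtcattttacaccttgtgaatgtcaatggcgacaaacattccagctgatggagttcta
THBS4 probe: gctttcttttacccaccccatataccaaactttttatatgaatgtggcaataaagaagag
KIT, NPSR1 and SAL1 were each read by at least 2 probes of different sequence, whereas C1GALT1, VMO1, MYL6B and THBS4 each had 1 tested probe under their name.

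Among the genes higher in LW, the receptor KIT differed most clearly. KIT is the tyrosine kinase receptor of stem cell factor, which marks mast cells and pigment cells. KIT measured 10.18, 9.92, 9.68, 10.66 and 10.79 in Creole arrays 1 to 5 and 12.35, 12.11, 12.31, 12.15 and 12.60 in LW arrays 1 to 5. All LW arrays lay above all Creole arrays. The difference was 2.06 ± 0.24 (SE, n = 5 and 5), which is 4.16-fold, with an adjusted p of 8.31e-05. The other 4 KIT probes gave 1.23 to 2.11 and all passed the threshold. The 5 probes hold 4 distinct sequences from 3 separate stretches.

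SAL1, a salivary lipocalin that carries small odorant molecules, showed the largest difference above 0. SAL1 measured 10.80, 11.20, 14.03, 9.28 and 11.80 in Creole and 15.79, 15.47, 15.16, 13.51 and 14.20 in LW. Creole array 3 lay inside the LW range, and the spread within Creole was wide. The difference was 3.40 ± 0.86 (10.6-fold, adjusted p = 0.0245) and the other probe gave 3.32. Without Creole array 1 or 4, or LW array 1, 2 or 3, the adjusted p of SAL1 was 0.0509 to 0.0673.

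The 12 largest differences above 0 also held THBS4, COMP, TNMD and 2 collagen chains, which are set together here by their known roles, a grouping made after the values were seen. THBS4, a thrombospondin of the matrix, measured 10.67, 10.61, 12.07, 12.05 and 12.44 in Creole and 13.05, 14.66, 13.64, 13.48 and 13.53 in LW, without overlap. Its difference was 2.10 ± 0.44 (4.30-fold, adjusted p = 0.00951). COMP, the cartilage oligomeric matrix protein, was higher by 1.80 ± 0.31 (adjusted p = 0.00305), and its arrays did not overlap either, at 8.57 to 10.45 in Creole and 10.66 to 12.25 in LW. TNMD, a membrane protein of tendon, was higher by 1.75 ± 0.50 (adjusted p = 0.0394). The fibrillar collagen chains COL11A1 and COL2A1 were higher by 1.61 ± 0.39 (adjusted p = 0.0208) and 1.52 ± 0.42 (adjusted p = 0.0372). These last 3 genes were less secure, since Creole array 5 lay inside the LW range for each of them. Leaving out any 1 of the same 7 arrays (all but LW arrays 1 and 5 and Creole array 5) ended the calls of TNMD (adjusted p of 0.0669 to 0.109) and COL2A1 (0.062 to 0.115), and COL11A1 lost its call without Creole array 1 or 2 or LW array 2 or 4 (0.0534 to 0.0653). With its probes averaged, COL11A1 was 1.04. THBS4 and COMP passed without each array and under every alternative processing.

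The other large differences above 0 were in genes of unrelated roles. XAF1, an interferon-inducible partner of the apoptosis inhibitor XIAP, was higher by 1.80 ± 0.37 (adjusted p = 0.00925), but its other probe gave 0.73 (adjusted p = 0.176), and in the fit of the 10 arrays alone its adjusted p was 0.0592. RBP5, a retinol binding protein, was higher by 1.73 ± 0.48 (adjusted p = 0.0372) without overlap of the arrays, although it lost its call when any 1 of 8 arrays, all but LW array 1 and Creole array 5, was left out (0.0507 to 0.108). CXCL13, the chemokine that draws B cells, was higher by 1.48 ± 0.37 (adjusted p = 0.0216). It read 6.24 in LW array 1, within the Creole range of 6.08 to 6.66, and 7.38 to 8.80 in the other LW arrays. CXCL13 did not pass without LW array 2 or 3 (0.0656 and 0.0644). It also did not pass with slide as a block (1.21, adjusted p = 0.0769) or with the 10 arrays alone (0.0769). CAPSL was higher by 1.56 ± 0.36 (adjusted p = 0.0158) and C1H9orf152 by 1.44 ± 0.27 (adjusted p = 0.00523). CAPSL was 2.42 with percentile scaling. CAPSL lost its call without LW array 2 (0.0553) and with slide as a block (1.20, adjusted p = 0.0755).

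Among the genes lower in LW, C1GALT1 was close to an on and off pattern. This galactosyltransferase makes the core of most mucin-type sugar chains. C1GALT1 measured 8.33, 8.60, 8.51, 9.73 and 8.55 in Creole and 5.32, 5.35, 5.29, 5.21 and 5.34 in LW. The probe was well above background on all 5 Creole arrays and on 0 of 5 LW arrays. Its level in LW is therefore only a bound, and C1GALT1 was at least 10.8-fold lower in LW (fitted difference -3.45 ± 0.44, adjusted p = 0.000265). This bound holds for quantile-normalized levels, since the fitted difference was -2.79 after normexp background correction and -6.15 with scaling to the 75th percentile.

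VMO1, the homolog of a protein of the outer egg membrane, measured 9.81, 9.71, 8.33, 9.50 and 9.52 in Creole and 5.90, 5.93, 5.81, 7.54 and 5.96 in LW. Creole array 3 was low and LW array 4 high for their breeds, yet the groups did not overlap. The difference was -3.14 ± 0.51 (8.84-fold lower, adjusted p = 0.00209). MYL6B, a light chain of myosin, measured 11.28, 11.44, 11.76, 11.39 and 10.94 in Creole and 9.76, 8.97, 8.61, 8.95 and 8.75 in LW, again without overlap. Its difference was -2.36 ± 0.48 (5.12-fold lower, adjusted p = 0.00883). The mean level of the 12 skeletal muscle markers ran from 9.76 to 13.79 over the same Creole arrays. The part of muscle tissue in the difference of MYL6B was not tested.

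NPSR1, the receptor of neuropeptide S, measured 8.70, 8.96, 8.77, 9.49 and 9.29 in Creole and 6.93, 6.85, 6.54, 7.01 and 6.97 in LW. The groups were far apart, with a difference of -2.18 ± 0.29 (4.53-fold lower, adjusted p = 0.000453) and of -1.62 with the other probe. PANK3, a pantothenate kinase that starts the synthesis of coenzyme A, measured 12.83, 12.70, 13.32, 12.24 and 10.97 in Creole and 10.41, 10.53, 10.05, 10.87 and 10.64 in LW. Creole array 5 lay close to the LW arrays but above them. The difference of PANK3 was -1.91 ± 0.40 (3.76-fold lower, adjusted p = 0.00988), and its other probe gave -1.60. MGST2, a microsomal glutathione transferase, was lower by -1.69 ± 0.28 (adjusted p = 0.00224), at 13.17 to 13.81 in Creole and 11.33 to 12.40 in LW. C9, the last component of the complement pore, was lower by -1.49 ± 0.29 (adjusted p = 0.00683), at 7.51 to 8.59 in Creole and 5.79 to 6.86 in LW. These 4 genes, with VMO1 and MYL6B, passed without each array and under every alternative processing. C1GALT1 did so too, except that the filter for probes well above background on all arrays removed its probe.

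The remaining large differences below 0 were less secure. SLC2A5, the fructose transporter, measured 8.01, 8.0, 9.05, 8.55 and 6.30 in Creole and 5.77, 5.87, 5.67, 6.79 and 6.72 in LW. Creole array 5 lay inside the LW range. The difference was -1.82 ± 0.52 (adjusted p = 0.042), which was lost when any 1 of 8 arrays, all but LW and Creole array 5, was left out (0.051 to 0.113). P2RX5, an ATP-gated ion channel, was lower by -1.70 ± 0.48 (adjusted p = 0.0384) and PTGDS, a prostaglandin D synthase, by -1.39 ± 0.38 (adjusted p = 0.0344). Each lost its call when any 1 of 7 arrays was left out, Creole arrays 1 to 4 and LW arrays 3 and 4 in both cases, with LW array 2 for P2RX5 (up to 0.0951) and LW array 5 for PTGDS (up to 0.0898). WDFY3, an autophagy scaffold, was lower by -1.44 ± 0.31 (adjusted p = 0.0125), whereas its other probes gave -0.75 and -0.02. LGALS13, a galectin, measured 8.73, 7.88, 8.0, 8.29 and 7.27 in Creole and 7.03, 6.80, 6.37, 5.6 and 5.48 in LW, of which 3 arrays were well above background. Its difference was -1.78 ± 0.43 (adjusted p = 0.0206, and 0.0613 and 0.0524 without Creole array 1 or LW array 4), and -2.75 with percentile scaling. Of the 24 leading genes, 13 passed without each array in turn. With slide as a block 7 of the 24 did not pass, and with the 10 arrays alone 6 did not.

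**Figure D2:**
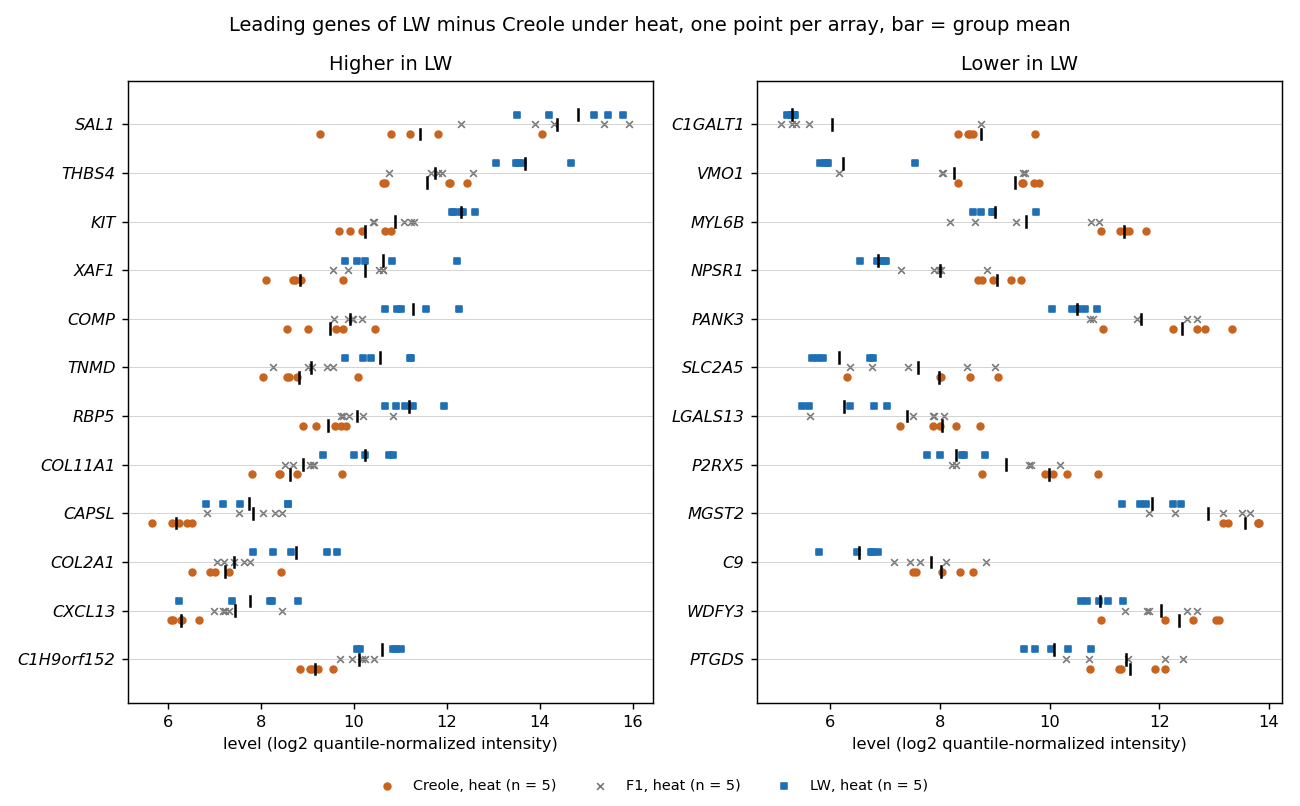
Levels (log2 quantile-normalized intensity, x axis) of the 12 genes with the largest differences in each direction, 1 point per array, for Creole (circles), F1 (crosses) and LW (squares) under heat, n = 5 each, with a bar at each group mean. KIT and THBS4 separate LW from Creole without overlap, and C1GALT1 puts all LW arrays near 5.3 and all Creole arrays above 8.3.

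Of 14 measured genes of fatty acid synthesis, 7 passed the threshold and all 7 were lower in LW than in Creole. In all, 13 of 14 had a difference below 0, with a median of -0.78 against -0.00 over all named genes. At TN the median of this list was -0.31. ELOVL6, the elongase that takes palmitate to stearate, measured 15.30, 15.11, 15.16, 15.05 and 14.03 in Creole and 13.49, 14.42, 13.41, 13.79 and 13.80 in LW. Only Creole array 5 lay inside the LW range. The difference of ELOVL6 was -1.15 ± 0.29 (adjusted p = 0.0248). FASN, the fatty acid synthase itself, was lower by -0.36 ± 0.09 (adjusted p = 0.0265), while its other 4 probes gave -1.0 to -0.94. The call of the main FASN probe was lost with percentile scaling (adjusted p = 0.198) or with the 10 arrays alone (0.121). The main FASN probe was among the brightest of the array, at a mean of 18.26 in LW and 18.62 in Creole. PGD and IDH1, which supply NADPH for the synthesis, were lower by -0.58 ± 0.13 (adjusted p = 0.013) and -0.52 ± 0.14 (adjusted p = 0.0328). IDH1 was -0.94 with percentile scaling and -0.38 after normexp correction. With the 10 arrays alone neither PGD nor IDH1 passed (adjusted p of 0.0545 and 0.0885).

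The other 3 members past the threshold, named after their values were seen, were SLC25A1, ACSS2 and SCD. SLC25A1, the citrate carrier of mitochondria, was lower by -1.07 (adjusted p = 0.0357). ACSS2, which activates acetate, was lower by -1.17 (adjusted p = 0.0475). SCD, the stearoyl-CoA desaturase, was lower by -0.92 (adjusted p = 0.0494), and its 10 other probes gave -1.22 to -0.77. ACLY, ME1 and ACACA, which cleave citrate, make NADPH and form malonyl-CoA, had differences of -1.37, -1.19 and -0.95 that did not pass (adjusted p of 0.0718, 0.064 and 0.101).

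The mean level of the 14 genes was 13.51, 13.32, 13.56, 13.19 and 12.18 in Creole and 12.21, 12.49, 12.08, 12.60 and 12.53 in LW. Creole array 5 alone sat at the level of LW. ELOVL6, FASN and IDH1 lost their calls when any 1 of 5, 4 and 7 arrays was left out. The count of 7 rose to 11 without that array, and was 1 without Creole array 1 or 3 or LW array 3, 1 when the 10 arrays were fitted on their own and 3 with slide as a block. The adipocyte markers moved in the same direction. All 9 had a difference below 0 (median -0.22, against -0.02 at TN), of which GPD1 and PLIN1 passed. GPD1 and PLIN1 are also counted in the lipolysis and triglyceride lists below. With slide as a block neither passed (adjusted p of 0.0702 and 0.154). The mean level of the markers was 14.92 to 15.16 in LW and 15.26 to 15.56 in Creole, without overlap. Their part in the lower lipid synthesis genes was not tested. In a whole tissue, fewer cells of a type and less RNA per cell cannot be told apart.

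Other lipid genes followed the same direction in smaller numbers. In triglyceride synthesis and lipid droplets, 3 of 13 were lower and none was higher. These were AGPAT2, the second acyltransferase of the path (-0.70, adjusted p = 0.0167), GPAM, the first one (-0.52, adjusted p = 0.0429), and PLIN1, the coat protein of the droplet (-0.22, adjusted p = 0.0481). The 2 probes of AGPAT2, averaged, gave -0.45 and did not pass (adjusted p = 0.0630), and PLIN1 was -0.34 with percentile scaling. In cholesterol synthesis, 4 of 15 were lower, and 14 of 15 had a difference below 0. LSS, the lanosterol synthase, was lower by -0.78 ± 0.16 (adjusted p = 0.0078), with PMVK (-0.47) and IDI1 (-0.58) upstream of it. IDI1 was read near background (well above it on 4 of 5 LW arrays), and its difference was -1.31 with percentile scaling and -0.42 after normexp correction, where it no longer passed (adjusted p = 0.0530). The cholesterol list held 2 to 4 such genes without 1 array and 1 with slide as a block, and the triglyceride list 1 to 3 and 0. GPAM, PLIN1, PMVK and IDI1 lost their calls when any 1 of 7 or 8 arrays was left out.

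In the lists of uptake, lipolysis and oxidation of fatty acids, 0%, 9.1% and 4.8% of the genes passed, against 6.22% of all named genes. In fatty acid uptake 0 of 11 genes passed. The scavenger receptor CD36 had a difference of -0.30 (adjusted p = 0.0658) and ANGPTL4, an inhibitor of lipoprotein lipase, of 1.23 (adjusted p = 0.163). CD36 passed with percentile scaling (-0.35, adjusted p = 0.0443) and without Creole array 4 or LW array 5 (0.0439 and 0.0214). In the lipolysis list only GPD1 was lower (-0.40 ± 0.09, adjusted p = 0.0151) of 11 genes. GPD1 makes glycerol 3-phosphate and does not itself break down fat, and no other gene of the list passed. GPD1 did not pass with slide as a block (-0.32, adjusted p = 0.0702) or with the 10 arrays alone (0.0514). In fatty acid oxidation only ACADM, the medium-chain dehydrogenase, was lower (-0.44 ± 0.10, adjusted p = 0.0112) of 21. In all, 15 of these 21 had a difference below 0 (median -0.15). The number lower was 4 with percentile scaling and 0 with the 10 arrays alone.

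**Figure D3:**
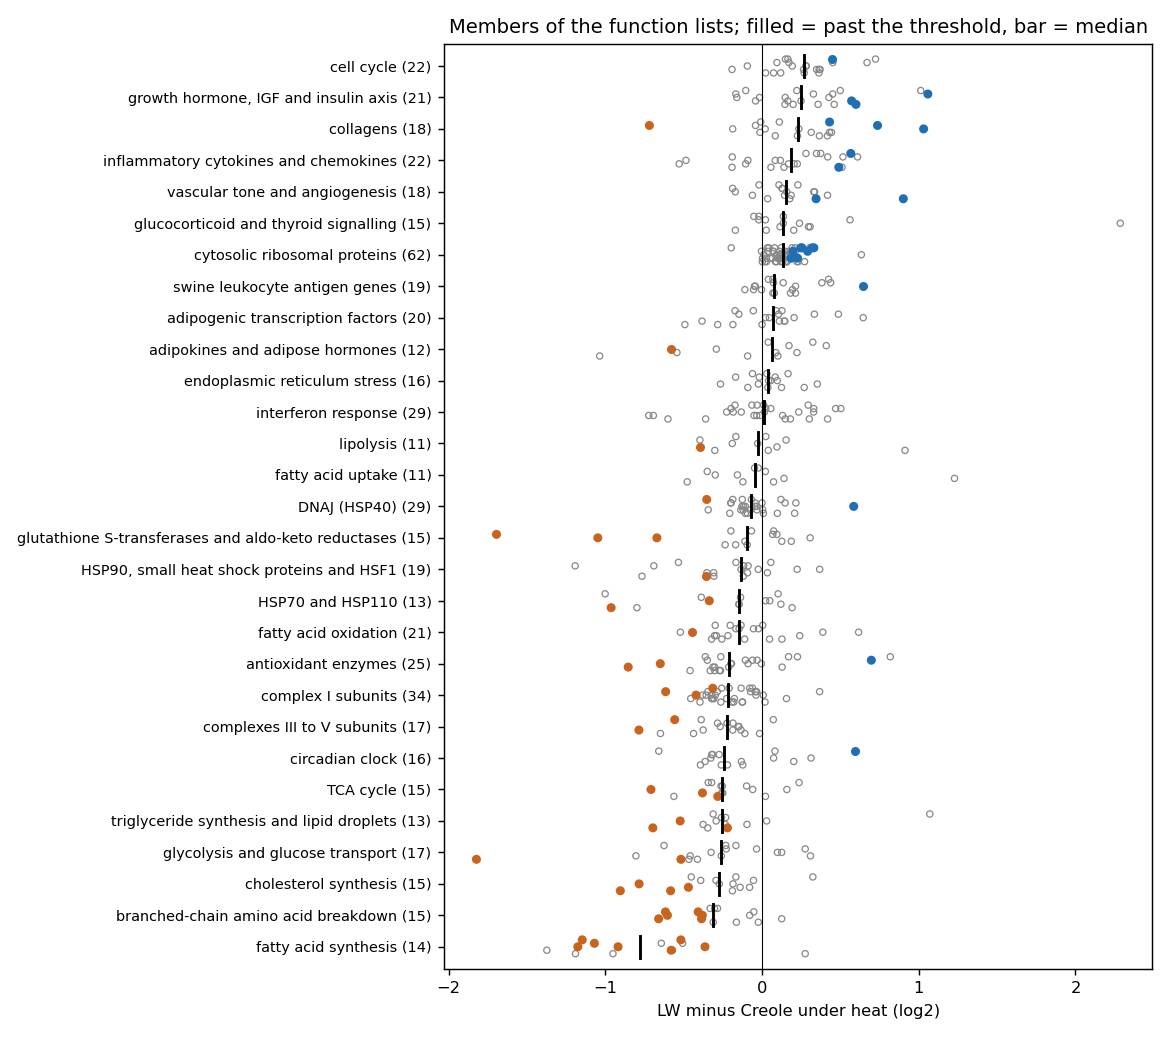
Difference between LW and Creole under heat (log2, x axis) of every measured member of the function lists (y axis, number measured in brackets), 1 point per gene, filled where the adjusted p is below 0.05, with a bar at the list median. Fatty acid synthesis has the lowest median, at -0.78, and the cell cycle the highest, at 0.27.

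Breakdown of branched-chain amino acids can feed carbon to lipid synthesis in fat cells. Of 15 genes of this path, 6 were lower in LW and none was higher, with a median of -0.31. HIBADH, of the valine path, measured 12.29, 12.20, 12.56, 12.59 and 12.09 in Creole and 11.89, 11.60, 11.52, 11.66 and 11.98 in LW. The groups did not overlap, and the difference was -0.62 ± 0.12 (adjusted p = 0.00667). BCKDHB and DBT, subunits of the branched-chain ketoacid dehydrogenase, were lower by -0.66 ± 0.16 (adjusted p = 0.0175) and -0.60 ± 0.16 (adjusted p = 0.0293), and MCCC1, of the leucine path, by -0.38 ± 0.10 (adjusted p = 0.024). The others, named after their values were seen, were PCCA (-0.41) and ALDH6A1 (-0.39). BCKDHB, DBT and MCCC1 lost their calls when any 1 of 2, 5 and 3 arrays was left out. The count was 1 without Creole array 1 and in the fit of the 10 arrays alone, and 7 without Creole array 5 or LW array 5.

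Mitochondrial genes had small differences, mostly below 0. In the TCA cycle 3 of 15 were lower. CS, the citrate synthase, was the most regular of them, at 15.47, 15.35, 15.36, 15.57 and 15.31 in Creole and from 14.96 to 15.17 in LW. Its difference was -0.38 ± 0.08 (adjusted p = 0.0123), the groups did not overlap, and all 7 other CS probes passed in the same direction. The 8 CS probes hold 7 distinct sequences from 4 separate stretches. DLD, the shared dehydrogenase of the ketoacid complexes, was lower by -0.71 ± 0.15 (adjusted p = 0.0106) and SDHB, of complex II, by -0.28 ± 0.07 (adjusted p = 0.0255). Among the subunits of complex I, 30 of 34 had a difference below 0 (median -0.22), and NDUFA6 (-0.61), NDUFB5 (-0.42) and NDUFS1 (-0.31) passed. Among those of complexes III to V, 16 of 17 were below 0 (median -0.22), and COX5A (-0.79) and CYC1 (-0.56) passed. In glycolysis and glucose transport 2 of 17 passed, SLC2A5 and PGAM1 (-0.52 ± 0.14, adjusted p = 0.0287). Except for CS and DLD, each of these genes lost its call when any 1 of 4 to 9 arrays was left out. DLD did not pass with the 10 arrays alone (adjusted p = 0.0523). The counts of these lists depended on single arrays. Without Creole array 5 they were 8 for the TCA cycle, 13 for complex I, 6 for complexes III to V and 7 for glycolysis. Without Creole array 1, 2 or 3 no subunit of complex I or of complexes III to V passed.

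**Figure D4:**
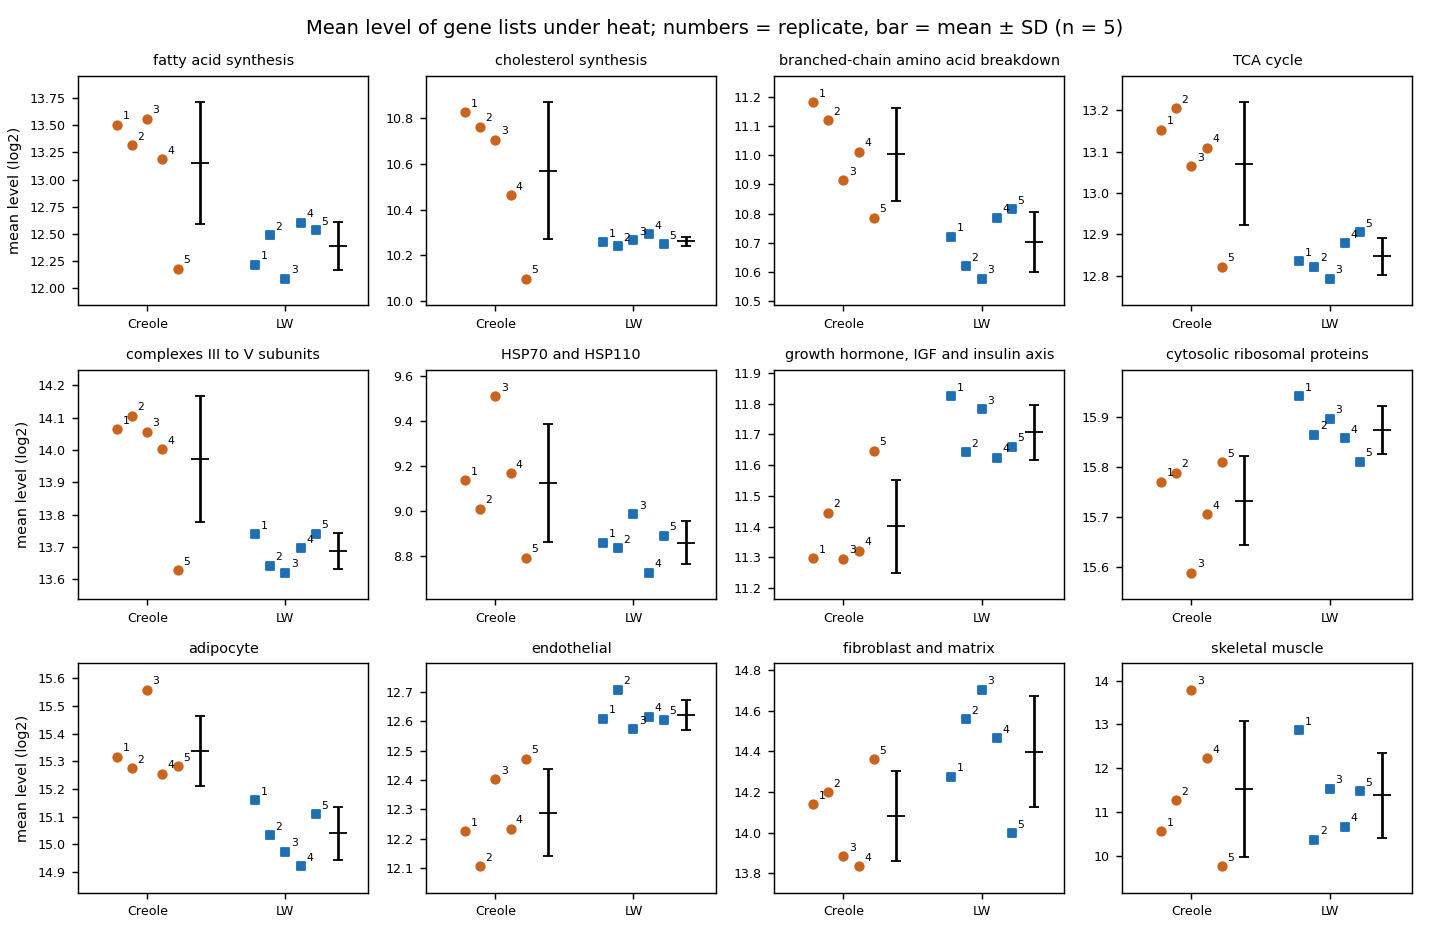
Mean log2 level of 8 function lists and 4 lists of cell markers (y axes, scaled per panel and not starting at 0) on each Creole (circles) and LW (squares) array under heat, numbered by replicate, with mean ± SD (n = 5). Creole array 5 lies at the level of LW for fatty acid synthesis (12.18) and complexes III to V (13.63), whereas for the adipocyte markers it lies with the other Creole arrays (15.28).

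Heat shock proteins refold damaged proteins, and their genes respond to heat in most cells. All of these animals were heat-stressed. Of 13 genes of the HSP70 and HSP110 families, 2 were lower in LW. HSPA4, a member of the HSP110 family, measured 8.70, 8.41, 8.91, 8.24 and 7.61 in Creole and 7.24, 7.24, 7.62, 7.53 and 7.42 in LW. Creole array 5 overlapped the LW arrays. The difference was -0.96 ± 0.20 (adjusted p = 0.0101), which passed without each array. HSPA14, a ribosome-bound HSP70, was lower by -0.34 ± 0.10 (adjusted p = 0.0494), a call lost when any 1 of 7 arrays was left out (up to 0.152). The constitutive HSPA8 and the inducible HSPA6 had differences of 0.10 and -0.14 that did not pass (adjusted p of 0.852 and 0.745). Of 29 genes of DNAJ co-chaperones, DNAJC7 was higher and DNAJC19 lower. DNAJC7 measured 11.46 to 11.88 in Creole and 12.17 to 12.35 in LW, a difference of 0.59 ± 0.09 (adjusted p = 0.00211), whereas DNAJC19, of mitochondrial import, was lower by -0.35 ± 0.08 (adjusted p = 0.0167, and up to 0.0583 without any 1 of 3 arrays). In a list of 19 genes of HSP90 and its co-chaperones, small heat shock proteins, heat shock factors and mitochondrial chaperonins, the chaperonin HSPD1 (HSP60) alone passed (-0.36 ± 0.10, adjusted p = 0.0384), and it lost its call when any 1 of 6 arrays was left out. The small heat shock protein HSPB1 had a difference of -0.77 that did not pass (adjusted p = 0.0995), but it passed without Creole array 5 (-1.03, adjusted p = 0.0129) and under no other leave-out. Without that array 4 of the 13 and 4 of the 19 genes were lower, and without other arrays 1 to 2 and 0 to 1. Of 16 genes of endoplasmic reticulum stress, 0 passed. In the DNAJ list and the list of 19 genes 6.9% and 5.3% passed, near the 6.22% of all named genes.

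Antioxidant and detoxifying enzymes showed differences in both directions. SOD2, the superoxide dismutase of mitochondria, measured 12.23, 12.22, 12.43, 12.22 and 12.45 in Creole and 12.92, 13.07, 12.73, 13.14 and 13.17 in LW. It was higher by 0.70 ± 0.16 (adjusted p = 0.0139) without overlap, but its 8 other probes ranged from 0.10 to 2.94 and only 2 of them passed. Of these 2, the probe at 0.60 has the same sequence as the main probe. PRDX1, a peroxiredoxin, measured 13.76, 14.32, 14.14, 14.17 and 13.85 in Creole and 13.05, 13.13, 13.23, 13.25 and 13.31 in LW. The groups did not overlap and PRDX1 was lower by -0.85 ± 0.20 (adjusted p = 0.019). GCLM, which helps to make glutathione, was lower by -0.65 ± 0.18 (adjusted p = 0.0378), so that 1 gene was higher and 2 were lower of 25 antioxidant genes. GCLM lost its call when any 1 of 8 arrays was left out (up to 0.107), and PRDX1 without LW array 2 (0.0505). The number lower was 0 to 6 without 1 array. Of 15 glutathione S-transferases and aldo-keto reductases, MGST2, GSTA4 (-0.67 ± 0.13, adjusted p = 0.00538) and AKR1C1 (-1.05 ± 0.22, adjusted p = 0.0102) were lower. GSTA4 did not pass with the 10 arrays alone (adjusted p = 0.0638). The 5 other AKR1C1 probes gave 0.03 to 0.45, none in the same direction, and close homologs of this gene could share its probes.

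In the growth hormone, IGF and insulin axis, 3 of 21 genes were higher in LW and none was lower. IGF2, a growth factor, measured 14.32, 14.07, 15.48, 14.31 and 14.44 in Creole and 15.65, 15.83, 15.71, 15.60 and 15.12 in LW. Creole array 3 lay inside the LW range and the other Creole arrays below it. The difference was 1.06 ± 0.24 (adjusted p = 0.015), and all 8 other IGF2 probes passed with 0.71 to 1.23. The 9 IGF2 probes hold 8 distinct sequences from 7 separate stretches. With the 10 arrays alone IGF2 did not pass (adjusted p = 0.0504). Within the slide that held Creole arrays 3 and 4 and LW array 5 the IGF2 difference was 0.22. Within the other slide with both breeds it was 1.67. The IGF-binding proteins IGFBP2 (0.57 ± 0.12, adjusted p = 0.00954) and IGFBP6 (0.60 ± 0.18, adjusted p = 0.0468) were also higher, of which IGFBP6 lost its call when any 1 of 8 arrays was left out. In the same order of slides, IGFBP2 was 0.20 and 0.61 and IGFBP6 was 0.16 and 0.46.

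Of 62 ribosomal protein genes measured, 8 were higher in LW and none was lower, and 60 had a difference above 0 (median 0.13). RPS3 was the clearest, at 17.85, 17.77, 17.68, 17.83 and 17.90 in Creole and 18.22, 18.10, 18.14, 18.17 and 18.04 in LW. Its difference was 0.33 ± 0.06 (adjusted p = 0.00636), without overlap. RPS14 (0.29), RPS21 (0.23) and RPS29 (0.20) were next, and lost their calls when any 1 of 7, 7 and 6 arrays was left out. The count fell to 1 with scaling to the 75th percentile, with slide as a block, in the fit of the 10 arrays alone, or without Creole array 4 or LW array 1, 2 or 3, and was 12 without Creole array 5. Under the percentile scaling 59 of the 62 differences were above 0, with the same median.

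Of 18 other collagens, 3 were higher and 1 was lower. COL8A1, of vessel walls, was higher by 1.03 ± 0.24 (adjusted p = 0.0183), COL16A1 by 0.74 ± 0.19 (adjusted p = 0.0272) and COL18A1, the precursor of endostatin, by 0.43 ± 0.10 (adjusted p = 0.0194). They lost their calls when any 1 of 2, 5 and 3 arrays was left out. COL5A3 was lower by -0.72 ± 0.17 (adjusted p = 0.0168), at 15.87 to 16.48 in Creole and 15.29 to 15.67 in LW, and did not pass without LW array 2 (0.0509). The number higher was 0 without Creole array 1 or LW array 2 and with slide as a block. Of 18 genes of vascular tone and angiogenesis, KDR and ACE were higher. KDR, the main receptor of VEGF, read 9.94, 9.86, 10.09, 8.91 and 9.91 in Creole and 10.69, 10.73, 10.72, 10.23 and 10.86 in LW. It was higher by 0.90 ± 0.21 (adjusted p = 0.0164), whereas its other probes gave 0.06 and 0.28 and did not pass. KDR did not pass with the 10 arrays alone (adjusted p = 0.0561). ACE, the angiotensin-converting enzyme, was higher by 0.34 ± 0.10 (adjusted p = 0.0421), and lost its call when any 1 of 8 arrays was left out (up to 0.137) and with percentile scaling (0.20, adjusted p = 0.215).

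Immune and hormone genes showed single differences. In the cytokine and leukocyte antigen lists 9.1% and 5.3% of the genes passed, near the 6.22% of all named genes. Of 22 inflammatory cytokines and chemokines, 2 were higher. NFKBIA, the inhibitor of NF-kappaB that NF-kappaB itself induces, measured 14.41, 14.39, 14.48, 14.17 and 14.50 in Creole and 14.91, 15.04, 15.13, 14.88 and 14.82 in LW. Its difference was 0.57 ± 0.11 (adjusted p = 0.00636), the groups did not overlap, and 4 of its 5 other probes passed. The 6 NFKBIA probes hold only 3 distinct sequences. CCL19, a chemokine of lymphoid tissue, was higher by 0.49 ± 0.12 (adjusted p = 0.0201), a call lost when either of 2 arrays was left out (up to 0.0656). CCL19 also did not pass with percentile scaling (0.0571), slide as a block (0.0677), the 10 arrays alone (0.0697) or its probes averaged (0.0703). Of 19 swine leukocyte antigen genes SLA-8 was higher (0.65 ± 0.18, adjusted p = 0.0388), a member of a family of near-identical genes. Within the slide of Creole arrays 3 and 4 and LW array 5 the SLA-8 difference was -0.03. Within the other slide with both breeds it was 1.38. SLA-8 lost its call when any 1 of 7 arrays was left out (up to 0.107) and with all its probes averaged (0.317). Of 29 interferon response genes and of 20 adipogenic transcription factors, 0 passed.

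In the lists of adipokines, clock genes and cell cycle genes 8.3%, 6.25% and 4.5% passed, near the 6.22% of all named genes. Of 12 adipokines and adipose hormones, NRG4 was lower (-0.58 ± 0.15, adjusted p = 0.0268), a call lost when any 1 of 5 arrays was left out (up to 0.0846). Leptin (LEP) had a difference of -1.04 that did not pass (adjusted p = 0.226). Of 15 genes of glucocorticoid and thyroid signalling, 0 passed. The metallothionein MT1A had a difference of 2.29 that did not pass (adjusted p = 0.0925). It passed with the 10 arrays alone (2.27, adjusted p = 0.0319) and in no other setting. Of 16 clock genes, the nuclear receptor RORA was higher (0.59 ± 0.13, adjusted p = 0.0127), at 8.0 to 8.27 in Creole and 8.53 to 8.95 in LW. Of 22 cell cycle genes, the mitotic kinesin KIF11 was higher (0.45 ± 0.13, adjusted p = 0.0401), with 20 of 22 differences above 0 and a median of 0.27. The median of this list at TN was -0.33, of the opposite sign. KIF11 lost its call when any 1 of 8 arrays was left out, and its difference was 1.09 with percentile scaling (adjusted p = 0.0582) and 0.32 after normexp correction (0.0564). Its probe was not well above background on every array.

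Markers of other cells in the tissue were compared in the same way. All 7 endothelial markers had a difference above 0 (median 0.28), of which KDR passed, and their mean level was 12.57 to 12.71 in LW and 12.11 to 12.47 in Creole, without overlap. Their median at TN was -0.13. All 12 markers of fibroblast and matrix had a difference above 0 (median 0.28, 0 passed), at 13.996 to 14.70 in LW and 13.83 to 14.36 in Creole, which overlapped. All 10 markers of nerve and Schwann cells were above 0 (median 0.23, 0 passed), at 10.29 to 10.59 and 9.98 to 10.40. Of 3 lymph node and high endothelial markers, CXCL13 and CCL19 were higher, although neither passed with slide as a block. The mean level of the 3 was 9.73 to 10.73 in LW and 9.38 to 9.77 in Creole.

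Of 5 granulocyte and mast cell markers, KIT was higher, but MS4A2, the mast cell IgE receptor subunit, named after its value was seen, was lower (-0.40, adjusted p = 0.0396). The median of these markers was -0.04, against 0.95 at TN. All 8 markers of T and NK cells had a difference below 0 (median -0.25, 0 passed), as did 8 of 10 macrophage markers (median -0.10, 0 passed), whose median at TN was 0.27. Markers of smooth muscle (0 of 8), B and plasma cells (0 of 5), red blood cells (0 of 5) and keratinocytes (0 of 4) did not pass. Of the 12 skeletal muscle markers 0 passed, with a median of -0.16, against -1.95 at TN. Their mean level ran from 9.76 (array 5) to 13.79 (array 3) in Creole and from 10.37 to 12.87 in LW. All 12 were measured and 11 of them were well above background on all 10 arrays. The part of these cells in the differences above was not tested.

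The differences under heat had mostly the same direction in the pigs slaughtered at thermoneutrality. Of the 2530 probes that differed under heat, 2403 (95.0%) had the same sign in LW minus Creole at TN, against 69.0% of all tested probes. By the methods, the littermates of a block were spread over the pens of their breed. Pigs under heat and at TN could therefore be littermates, which the labels do not tell, and the part of litter in this agreement was not tested. Their median TN difference, taken in the direction of the heat, was 0.30, against 0.49 under heat, where they were chosen. The probes that passed at TN showed the reverse, with medians of 0.54 under heat and 0.82 at TN, so that no change in size is read from either. Only 140 probes passed at TN (0.313%), with 6779 at an unadjusted p below 0.05, where the groups were of 4 and 3 arrays. Of these, 84 had passed under heat as well, which is 3.32% of the heat list and 60% of the TN list. The TN difference was -3.45 for VMO1 and 1.77 for KIT. C1GALT1 measured a mean of 5.48 in LW and 8.56 in Creole at TN, again with LW near the lowest levels of the array. List medians at TN had the same sign as under heat for fatty acid synthesis (-0.31), complexes III to V (-0.23) and glycolysis (-0.26). The same held for the HSP70 and HSP110 list (-0.08), ribosomal proteins (0.09) and fibroblast markers (0.41). Among those of opposite sign were the cell cycle, endothelial and macrophage lists, as given above.

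At TN the difference was -1.10 for NPSR1, 1.71 for SAL1 and 0.58, of opposite sign, for LGALS13. For none of them did the test of a change in the breed difference pass (adjusted p of 1.00 each). The difference between heat and TN in the breed difference was tested on all 44703 probes, and limma called 1 of them (0.00224%), with 1908 at an unadjusted p below 0.05. That probe, A_72_P123631, has no gene name here. It measured 6.57 ± 0.22 in LW and 6.63 ± 0.15 in Creole under heat (SD, n = 5 each), and 7.72 ± 0.13 (n = 4) and 6.60 ± 0.02 (n = 3) at TN, so that it was high only in LW at TN (difference of differences -1.19, adjusted p = 0.00218).
A_72_P123631: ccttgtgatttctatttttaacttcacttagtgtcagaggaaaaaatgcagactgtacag

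**Figure D5:**
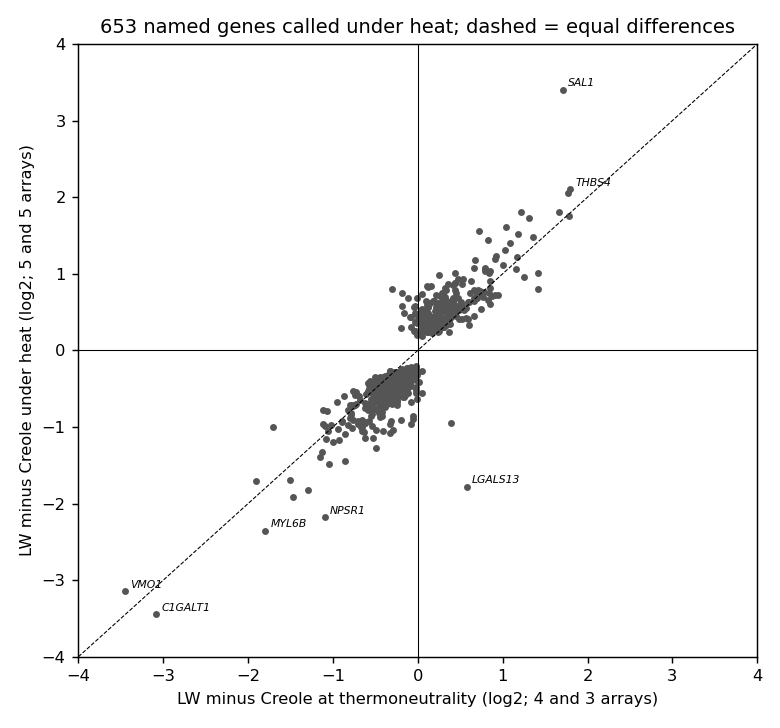
Difference between LW and Creole under heat (log2, y axis, 5 and 5 arrays) against that at thermoneutrality (log2, x axis, 4 and 3 arrays), 1 point for each of the 653 named genes that differed under heat. Most points lie in the quadrants of equal sign, and LGALS13 lies in the opposite one, at -1.78 under heat and 0.58 at TN.

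In the crossbred pigs under heat, the F1 mean was between the LW and Creole means for 2341 of the 2530 probes (92.5%) and for 44.0% of all tested probes, whose median gap between the breeds was 0.13 on the log2 scale against 0.49 for the 2530. The 2530 probes were chosen for the gap between the same means, which by itself favours such a position, so the share is given as a description. On a scale where Creole is 0 and LW is 1, the median F1 position was 0.41, and it was also 0.41 over all tested probes. The F1 mean lay beyond Creole for 133 of the 2530 probes and beyond LW for 56. Over all tested probes these numbers were 13544 and 11496. KIT stood at 0.31, THBS4 at 0.08 and IGF2 at 0.13, nearer Creole, and SAL1 at 0.86, nearer LW. C1GALT1 did not lie between the breeds in single animals. It measured 5.36, 5.29, 8.75, 5.61 and 5.10 in the 5 F1 pigs, so that 1 animal was at the Creole level and 4 were near the LW level.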

How the data were processed

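RNA of 26 SCAT samples was hybridised to one-colour Agilent porcine arrays, 1 array per pig. The scanner files deposited by the authors (Agilent Feature Extraction 10.10.1.1, per the submitters' processing notes) hold, for each spot, pixel intensity on a linear scale, not normalized between arrays, with flags for spots well above background, which the software set. The series matrix, also deposited by the authors, gives log2 levels of 44104 probes, and each of its columns correlated with the same array at 0.999997 or more, so it served as an alternative. No column of per-sample values was left unmapped.

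Median intensities were quantile-normalized and taken to log2 (R 4.3.3, limma 3.58.1 and data.table version 1.17.8). A probe was kept where 8 or more arrays flagged it well above background, which left 44703. Means of the 6 groups of breed and temperature were fitted over all 26 arrays by lmFit and eBayes, allowing for an intensity trend (20 residual degrees of freedom). LW minus Creole under heat was the contrast, and p-values were adjusted by Benjamini-Hochberg over all tested probes (threshold 0.05). The code was tested on simulated data. The random effects of pen, slaughter, father and mother in the model of the authors are not in the labels and were left out. Probes were named from the symbols and accessions of the files through a table of pig genes (22975 tested probes, 10500 genes), and the brightest probe stood for a gene. The precision is limited by the number of arrays.

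The genes named were the 12 largest differences in each direction among named genes past the threshold, and up to 4 members of each list with the smallest p-values, passed or not. Any other gene was named after its values were seen. Not every gene picked in this way is reported here. The comparison, the lists and these rules were chosen with earlier results of these data known. The lists come from general knowledge. Their level on an array is the mean log2 value over members, each with 1 probe, and probes of different genes are not compared in level. Alternatives were scaling to the 75th percentile, normexp background correction, the matrix, the 10 arrays alone, slide as a block, array weights, other filters, no intensity trend, all probes of a gene averaged, and each array left out.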

Additional observations from a re-analysis of the deposited data

Results flagged for a closer look

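Of 158 groups of 5 arrays (79 genes past the threshold that were named by rule, in both breeds), 13 held an array far from the other 4 by Dixon's ratio of the gap to the range. Chance gives such an array in about 1 in 20 groups. In Creole, array 5 was the lowest for ELOVL6 (ratio 0.802), IDI1 (0.85), LSS (0.831) and PGAM1 (0.739), that is 14.03, 5.92, 7.13 and 11.10 against 15.05, 6.38, 7.89 and 11.76 for the next array. Creole array 3 was the highest for IGF2 (0.735) and RPS29 (0.839) and the lowest for VMO1 (0.791). Creole array 4 was the highest for C1GALT1 (0.804) and the lowest for KDR (0.804). In LW, array 4 was the highest for VMO1 (0.912, at 7.54 against 5.96 for the next array) and the lowest for KDR (0.727), array 2 was the highest for CS (0.73) and array 3 the lowest for FASN (0.732).

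LGALS13 had opposite breed differences at the 2 temperatures, -1.78 under heat and 0.58 at thermoneutrality, a difference of -2.35 whose adjusted p is 1.00. The unnamed probe A_72_P123631 had a difference of differences of -1.19 (adjusted p = 0.00218).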

How the results depend on the processing

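The 2530 differing probes became 792 when the 10 arrays were normalized and fitted on their own (728 shared) and 1358 with slide as a block (1161 shared). The other settings for all arrays gave 1882 to 3149. Leaving out 1 array gave 845 to 4683 probes. It moved by over 1.5 times without Creole array 5 (4683) and without Creole array 1, 2, 3 or 4 or LW array 2, 3 or 4 (1049, 1408, 1455, 1568, 845, 1179 and 1500). With scaling to the 75th percentile 35.3% of the differing probes were higher in LW, against 42.0%. Of all 10500 named genes, 2.64% were higher in LW and 3.58% lower. Summed over the function lists, 23 genes were higher and 43 lower, a sum without a share because the distinct genes tested were not counted. The number higher was 11 with percentile scaling, 9 with the 10 arrays alone, 10 with slide as a block and 9 to 32 without 1 array. The number lower was 14 with the 10 arrays alone, 19 with slide as a block and 17 to 85 without 1 array. The change of the breed difference with temperature was called for 2 probes with array weights, and for 1 to 2 without 1 array. The share of differing probes with the same sign at TN was 92.9% to 97.9% without 1 array, and the share with the F1 mean between the breeds 92.8% to 95.7%.

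Of the 79 named genes past the threshold, 42 did not pass with the 10 arrays alone, 36 with slide as a block, 12 with percentile scaling, 17 without a filter and 0 with the matrix. Only SLA-8 reversed, to -0.032 within slide 4. The cause of these changes was not tested. No paired analysis was possible because the labels give the arrays no replicate numbers that groups could share.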

Other observations

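Probes of the same gene did not always move together. Of 386 genes past the threshold with other probes, every other probe had the same sign for 326. Over all 5467 tested genes with other probes, this held for 3433. Another probe passed in the same direction for 186 of the 386. For 5 genes, named after their values were seen, probes passed in opposite directions. The mRNA decapping scavenger DCPS had 1.31 with 1 probe and -0.47 with the other, and the groups did not overlap with either.
DCPS, higher in LW: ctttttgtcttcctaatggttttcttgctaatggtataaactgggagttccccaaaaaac
DCPS, lower in LW: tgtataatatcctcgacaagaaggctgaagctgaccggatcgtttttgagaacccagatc
The others were PRPS2 (0.33 and -0.73), PIK3R5 (0.68 and -0.78), DYNLT1 (0.83 and -0.54) and PPIG (0.38 and -0.35). For PIK3R5 and DYNLT1 the opposite probes have overlapping sequences that differ at some bases. The widest range within a gene described above was that of SOD2, whose probe A_72_P444413 gave 2.94 (adjusted p = 0.0436), at 9.81 ± 0.54 in LW and 6.87 ± 1.37 in Creole (SD, n = 5 each). What sets these probes apart was not tested.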
